A study of Mus musculus with 2 samples.

Results

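Conventional type 1 dendritic cells (cDC1) were examined in droplet single-cell RNA data from CD45+ leukocytes of mouse liver tumours. A barcode with at least 200 detected genes and under 15% mitochondrial UMIs (unique molecular identifiers, each counting 1 captured RNA molecule) was taken as a cDC1 when it held at least 2 raw UMIs of Xcr1 and Clec9a together, at least 10 of Cd74, and 0 of Cd3e, Cd79a and Siglech. The gate took 81 of 11350 barcodes, 42 of 6517 in the AKK library and 39 of 4833 in the PBS library. All were C57BL/6 mice kept on the MCD diet, which lacks methionine and choline, with luciferase-carrying RIL-175 hepatocellular carcinoma cells implanted in the liver. The AKK group was given Akkermansia muciniphila by mouth at 5000000000 CFU and the PBS group was given the saline vehicle. Feeding began 2 weeks before the diet, the diet began 2 weeks before implantation, and feeding was paused for 6 days after surgery and then taken up again. The question the labels name is how the bacterium affects immune cells in these tumours. Each group is 1 library, and the sources used here do not say whether it pools several mice. No test between the groups was therefore possible, and every interval below covers counting error only.

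cDC1 are the dendritic cells best known for taking up dead cells through the receptor CLEC9A and presenting their proteins on MHC class I to CD8 T cells, which is called cross-presentation. They develop under the transcription factors IRF8 and BATF3 and the growth factor receptor FLT3, and the chemokine receptor XCR1 marks them and draws them to the XCL1 made by NK and T cells. In tumours they are known as a source of IL-12 and of CXCL9 and CXCL10, which attract T and NK cells that carry CXCR3.

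The gated cells were deeply covered in relation to the rest of the libraries. Their summed UMIs came to 1010066 in the AKK library and 1126720 in the PBS library, with a median of 23012.5 UMIs per cell in AKK and 30444 in PBS, against medians of 6639 and 6868 over all kept barcodes. A median of 4707.5 genes per gated AKK cell and 5104 genes per gated PBS cell was detected. The libraries held 74272200 UMIs (AKK) and 63940877 UMIs (PBS) in kept barcodes, and 8 barcode sequences occurred in both libraries, none of them in a gated cell. Neutrophil genes in the gated cells stood at 3.80% (AKK) and 3.79% (PBS) of their level over all barcodes, which was used as an estimate of free RNA. The antibody gene Igkc of plasma cells stood higher, at 9.02% (AKK) and 7.92% (PBS) of its level, so that estimate is no upper limit.

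The gate rests on few UMIs, so its edges matter. Clec9a, the dead-cell receptor, had a median of 6.5 UMIs per gated AKK cell and 6 per gated PBS cell, and Xcr1 had a median of 1 in each library. Cells with both transcripts numbered 22 of 42 in AKK and 23 of 39 in PBS. At the lower edge, 8 AKK and 8 PBS cells held exactly 2 UMIs of Xcr1 and Clec9a, while 45 AKK and 24 PBS barcodes that met every other criterion held 1 and were left out. A UMI of Cd3e, Cd79a or Siglech removed a further 88 AKK and 25 PBS barcodes. Of those, 60 AKK and 16 PBS barcodes held Siglech, a pDC lectin. No more than 1 UMI of each of the 3 genes was held by 27 AKK and 12 PBS barcodes.

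The label was checked against the cDC1 genes that the gate did not use. The programme counted here holds 9 of them: Irf8, Batf3, Wdfy4 (needed for cross-presentation in mice), Naaa, the integrin gene Itgae, the RNA sensor gene Tlr3, Cadm1, Ifi205 and Flt3. A cell was said to carry it with at least 20 UMIs of these genes per 10000 UMIs and under 10 UMIs of the complement genes C1qa, C1qb and C1qc, which mark macrophages. This definition was added after the data had been seen. It held for 31 of 42 AKK cells (73.8%, exact Clopper-Pearson 95% interval 58 to 86.1) and 32 of 39 PBS cells (82.1%, 66.5 to 92.5). Of the barcodes removed for Cd3e, Cd79a or Siglech, 61 of 88 in AKK and 15 of 25 in PBS met it too. Among those with 2 or more Siglech UMIs, 35 of 49 in AKK and 8 of 12 in PBS did. The programme therefore does not by itself separate cDC1 from barcodes with pDC transcripts. Gated cells without the programme numbered 11 in AKK and 7 in PBS, and in these the label was not borne out. Their median programme level was 8.16 UMIs per 10000 in AKK and 10.4 in PBS, against 79.9 and 66.2 in programme cells. Of these, 6 AKK and 3 PBS cells carried 10 or more C1q UMIs, and of those with fewer C1q UMIs, 1 AKK and 3 PBS cells carried 10 or more UMIs of cDC2 markers. Values are therefore given for all gated cells and, where they differ, for the programme cells; for the 9 genes themselves the second value is set in part by the definition. The plot of programme level against C1q shows the cells with and without the programme. Those values define both sets, so their separation in the plot and in the medians above is no check of the label.

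**Figure D1:**
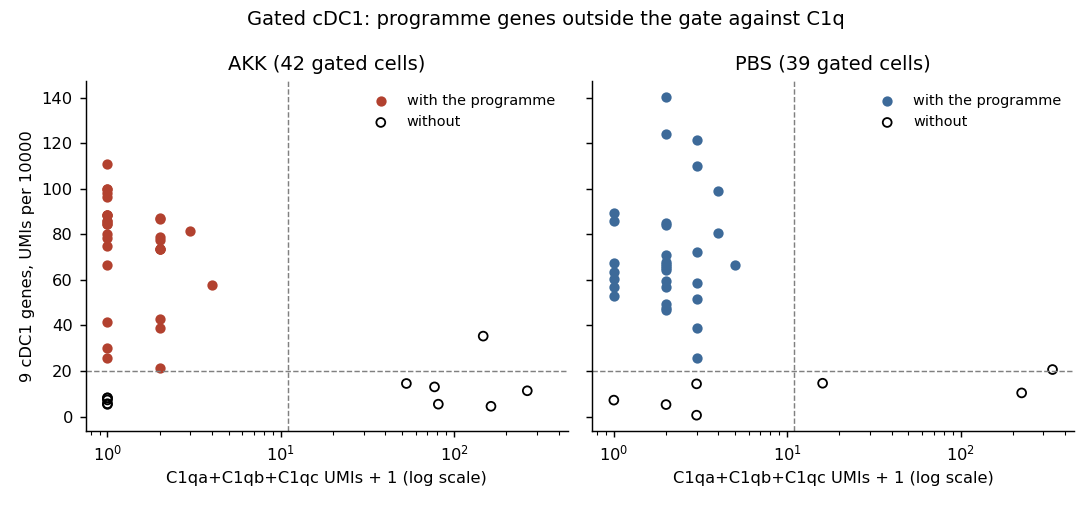
Each point is 1 gated cell, with the AKK library in the left panel and the PBS library in the right one; the vertical axis gives UMIs of the 9 programme genes per 10000 and the horizontal log axis gives C1q UMIs plus 1. Filled points are the 31 AKK and 32 PBS programme cells, above the dashed line at 20 and left of the dashed line at 10 C1q UMIs, and 6 AKK and 3 PBS cells lie to its right.

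The share of cDC1 among kept barcodes was lower in AKK by less than its counting error. It was 0.644% in AKK (exact 95% interval 0.465 to 0.870) and 0.807% in PBS (0.574 to 1.10). The difference was -0.162 percentage points, with a Newcombe 95% interval of -0.501 to 0.150. Counting the programme cells of the gate alone gave 0.476% in AKK and 0.662% in PBS. That count leaves out the 61 AKK and 15 PBS barcodes with the programme that held an excluded gene. Setting the gated cells against barcodes other than neutrophils gave 0.820% in AKK and 1.15% in PBS. Allowing 1 UMI of each of Cd3e, Cd79a and Siglech gave 69 AKK and 51 PBS cells, 1.06% of kept barcodes in each library, and a difference of 0.00352 points.

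Gene levels were compared as CPM, which scales each library to the same total, in the summed counts of the gated cells. Among 6330 genes with at least 40 UMIs in both sums together, 156 (2.46%) were at least 2-fold higher in AKK and 111 (1.75%) at least 2-fold lower, together 4.22%, on the scale log2(CPM + 10), which understates the ratio of low genes. A ratio above 1 was found for 54.5% of the genes and one below 1 for 45.5%. In programme cells alone, 147 of 5481 genes (2.68%) were at least 2-fold higher and 97 (1.77%) at least 2-fold lower, together 4.45%, and 55% had a ratio above 1. The median log2 ratio of all genes was 0.04 in both sets of cells. The lists below were read against these values.

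Several interferon-gamma response genes were higher in AKK cDC1, and the list's median depended on the cells counted. Of 24 genes in the list, 17 were measured and 11 had a ratio above 1, which 54.5% of all genes had. At least 2-fold higher were 4, and 1 was at least 2-fold lower, against 2.46% and 1.75% of all genes. The median log2 ratio of the list was 0.32, against 0.04 for all genes. In programme cells 12 were measured, 7 were at least 2-fold higher and 1 at least 2-fold lower, against 2.68% and 1.77%, and the median was 1.02. Without the cells with 10 or more C1q UMIs, but with the other gated cells, the median was 0.069, close to that of all genes. Ifng itself, the cytokine gene, gave 14 UMIs in AKK and 1 in PBS. It is mainly made by NK and T cells. NK and ILC1 markers in the gated cells summed to 314 CPM in AKK and 162 CPM in PBS. In programme cells they summed to 374 CPM in AKK and 176 CPM in PBS. Klrk1, 1 of these markers, was found in 81.0% of gated AKK and 69.2% of gated PBS cells. Nkg7 was found in 33.3% and 7.69%, and Ncr1 in 2.38% and 0%. Whether cDC1 made Klrk1 themselves was not tested, nor was the part of NK and T cell RNA in the list.

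Promoters of 4 members are shown because 3 of them hold a match to the interferon-stimulated response element and the fourth, Cxcl9, the member with the highest ratio among the chemokines, holds none. Each is the stretch of 250 bases before the transcription start on the gene's own strand, 5′ to 3′, from RefSeq on GRCm38.p6. Capitals mark matches to that element, searched on both strands as GAAA, any 2 bases and GAAA again, or its reverse complement, TTTC, any 2 bases and TTTC. They lie at chr3:142620413-142620662 (Gbp2, + strand), chr11:48871421-48871670 (Irgm1, - strand), chr5:92348890-92349139 (Cxcl10, - strand) and chr5:92328080-92328329 (Cxcl9, - strand).
Gbp2: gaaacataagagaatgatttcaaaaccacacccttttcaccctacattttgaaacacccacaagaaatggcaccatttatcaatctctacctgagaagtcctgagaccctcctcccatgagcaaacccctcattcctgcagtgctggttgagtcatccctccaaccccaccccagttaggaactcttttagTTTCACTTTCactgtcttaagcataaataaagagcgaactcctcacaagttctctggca
Irgm1: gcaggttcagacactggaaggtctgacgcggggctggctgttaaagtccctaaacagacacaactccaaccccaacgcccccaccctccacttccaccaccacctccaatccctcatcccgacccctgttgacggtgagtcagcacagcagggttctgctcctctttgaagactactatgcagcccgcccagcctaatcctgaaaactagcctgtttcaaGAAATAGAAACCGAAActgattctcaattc
Cxcl10: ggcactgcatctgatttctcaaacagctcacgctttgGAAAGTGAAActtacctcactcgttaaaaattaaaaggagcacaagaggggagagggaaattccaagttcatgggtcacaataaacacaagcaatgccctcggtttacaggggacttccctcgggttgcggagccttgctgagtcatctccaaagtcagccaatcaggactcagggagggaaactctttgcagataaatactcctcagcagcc
Cxcl9: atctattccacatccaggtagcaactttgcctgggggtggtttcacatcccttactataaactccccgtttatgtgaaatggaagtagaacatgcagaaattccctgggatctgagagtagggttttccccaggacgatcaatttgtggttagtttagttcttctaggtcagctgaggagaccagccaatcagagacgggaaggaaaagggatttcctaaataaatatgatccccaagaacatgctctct
The Gbp2 match covers bases 59 to 50 before the start, the Cxcl10 match bases 213 to 204, and Irgm1 has 2 overlapping matches of which the nearer to the 5′ end begins at base 30. Over all RefSeq windows, which run on to 50 bases past the start, the element was found in 1131 of 32851 (3.44%), and the gamma-activated site TTCNNNGAA, searched in the same way, in 2726 (8.30%). Of the 24 list genes, 16 had a window, 11 of these had a match to the first motif and 8 to the second. A match describes letters in a window and shows no binding.

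Among the large GTPases that interferon induces against microbes inside cells, Gbp2 was at 109 CPM in AKK and 24.9 CPM in PBS, a ratio of 4.38 (2.87 to 6.89). It was detected in 21 of 42 AKK and 15 of 39 PBS cells. Gbp5 went the other way over all gated cells, with 20.8 CPM in AKK and 50.6 CPM in PBS, but 52.6% of its PBS UMIs came from 1 cell with C1q transcripts. In programme cells Gbp5 was at 21.2 CPM in AKK and 4.29 CPM in PBS. The smaller immunity-related GTPases were low in PBS. Ifi47 gave 47 UMIs in 19 AKK cells and 7 UMIs in 5 PBS cells, a ratio of 7.49 (3.36 to 19.6). Iigp1 gave 50 UMIs in 8 AKK cells and 3 UMIs in 3 PBS cells, a ratio of 18.6 (6.01 to 93.2), and Irgm1 was at 45.5 CPM in AKK and 19.5 CPM in PBS. The top AKK cell held 28% of the AKK Iigp1 UMIs. Allowing 1 UMI of each of Cd3e, Cd79a and Siglech, the Iigp1 log2 ratio was 0.73 rather than 2.23. After each cell was thinned to 8993 UMIs, the shares of cells with a UMI differed by less than their counting error. The AKK minus PBS differences were 10.1 points for Iigp1 (-5.28 to 25.3), 15.3 for Ifi47 (-0.964 to 31.2) and 14.2 for Gbp2 (-6.32 to 33.0). Members of both GTPase families are close copies, so counts could be shared among them.

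Among regulators of the same pathway, Irf1 and Nlrc5 were higher in AKK as well. Irf1, a transcription factor gene induced early by interferon, was at 114 CPM in AKK and 74.6 CPM in PBS. Nlrc5, the activator of MHC class I genes, was at 79.2 CPM in AKK and 37.3 CPM in PBS, a ratio of 2.12 (1.44 to 3.16). Socs1, which damps the signal, was lower, with 35.6 CPM in AKK and 77.2 CPM in PBS. Ciita, the activator of class II genes, had a ratio of 1.12, with an interval that held 1 (0.927 to 1.34).

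Type I interferon-stimulated genes were measured for 15 of 29 members, 10 with a ratio above 1 and a median log2 ratio of 0.39. At least 2-fold higher was 1 of them, Ifi204, with 71.3 CPM in AKK and 24.9 CPM in PBS, and at least 2-fold lower were 2. Isg15, a ubiquitin-like modifier, had 101 UMIs in AKK and 63 UMIs in PBS, a ratio of 1.79, and Stat2 was at 111 CPM in AKK and 64.8 CPM in PBS. The 2 lower genes were Ifit2, with 8.91 CPM in AKK and 52.4 CPM in PBS, and Rsad2, an antiviral enzyme gene, with 11.9 CPM in AKK and 70.1 CPM in PBS. In programme cells both genes had too few UMIs to count as measured. Their ratios there, 2.89 for Ifit2 and 0.381 for Rsad2, were therefore not read as a direction.

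The chemokines differed in both directions. Of 12 measured, 2 were at least 2-fold higher (Cxcl9 and Ccl5) and 3 at least 2-fold lower (Cxcl10, Ccl17 and Ccl6). Cxcl9 (chromosome 5, 92321347 to 92328079, mm10), a ligand of CXCR3, gave 330 UMIs in 17 AKK cells and 33 UMIs in 5 PBS cells, that is 327 CPM in AKK and 29.3 CPM in PBS (ratio 11.2, 7.79 to 16.5). Of the PBS UMIs, 84.8% came from 1 cell, and of the AKK UMIs 26.7% did. After each cell was thinned to 8993 UMIs, a Cxcl9 UMI remained in 39.5% of 38 AKK cells and 5.71% of 35 PBS cells, a difference of 33.8 points (14.8 to 50.1). T cells thinned alike, a background for this gene, held a UMI in 3.28% (AKK) and 0.993% (PBS) of cells. The AKK cells with 88, 83 and 71 Cxcl9 UMIs carried 80, 162 and 263 C1q UMIs. Without the cells with 10 or more C1q UMIs the log2 ratio was 1.27 rather than 3.10. The level was lower in programme cells, at 81.0 CPM in AKK and 3.22 CPM in PBS, with 3 UMIs in PBS and a ratio of 25.2 (8.21 to 125). A single AKK programme cell held 34 Cxcl9 UMIs, and no other programme cell held more than 7.

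Cxcl10 (chromosome 5, 92346638 to 92348889), the neighbouring CXCR3 ligand gene, was the opposite case, with 17 UMIs in AKK and 118 UMIs in PBS and a ratio of 0.161 (0.0906 to 0.268). Cxcl10 was detected in 11 AKK and 12 PBS cells. Single PBS cells without the programme held 49, 41 and 15 of the PBS UMIs, the first of them 41.5%. Most of that difference lay outside the programme cells, in which Cxcl10 was at 7.97 CPM in AKK and 12.9 CPM in PBS (ratio 0.619, 0.190 to 1.78). Ccl17 (chromosome 8, 94810453 to 94812036), a ligand of CCR4 that dendritic cells make, was at 129.7 CPM in AKK and 371 CPM in PBS (ratio 0.350, 0.285 to 0.426). It came from 14 AKK cells and 23 PBS cells, and programme cells gave nearly the same ratio of 0.368. The top cell held 30.5% of the AKK UMIs and 32.1% of the PBS UMIs. After thinning, Ccl17 was found in 26.3% of AKK and 34.3% of PBS cells, a difference of -7.97 points (-28.0 to 12.7). Its log2 ratio of -1.45 was -1.36 without the top cell of each library. It was -0.47 without the cells that held at least 3 UMIs of 7 mitosis genes. Ccl6 was at 119 CPM in AKK and 342 CPM in PBS, but 1 PBS cell with 224 C1q UMIs gave 55.6% of its PBS UMIs. Without the top cell of each library its log2 ratio was -0.85 rather than -1.45, and in programme cells it was -1.11. Ccl5, a chemokine that attracts T cells and monocytes, was at 290.1 CPM in AKK and 68.3 CPM in PBS, but 1 AKK cell that also held 80 C1q UMIs gave 60.4% of its AKK UMIs. After thinning, Ccl5 was found in 15.8% of AKK and 17.1% of PBS cells, and before it in 52.4% of AKK and 43.6% of PBS cells.

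Of 13 genes for cytokines that steer T cells and their presentation, 7 were measured and 1, Il12b, was at least 2-fold higher. Il12b encodes the p40 chain shared by IL-12 and IL-23 and was at 117 CPM in AKK and 33.7 CPM in PBS, a ratio of 3.46 (2.38 to 5.13). It was found in 7 AKK and 8 PBS cells. A single AKK cell with 76 UMIs of Ccr7, the lymph node homing receptor, held 76.3% of the AKK UMIs, and a single PBS cell with 90 Ccr7 UMIs held 47.4% of those in PBS. Without the top cell of each library the log2 ratio was 0.43 rather than 1.54. Il18 was at 38.6 CPM in AKK and 15.1 CPM in PBS (ratio 2.56, 1.41 to 4.82). Il1b was at 1223 CPM in AKK and 865 CPM in PBS (ratio 1.41, 1.30 to 1.54).

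**Figure D2:**
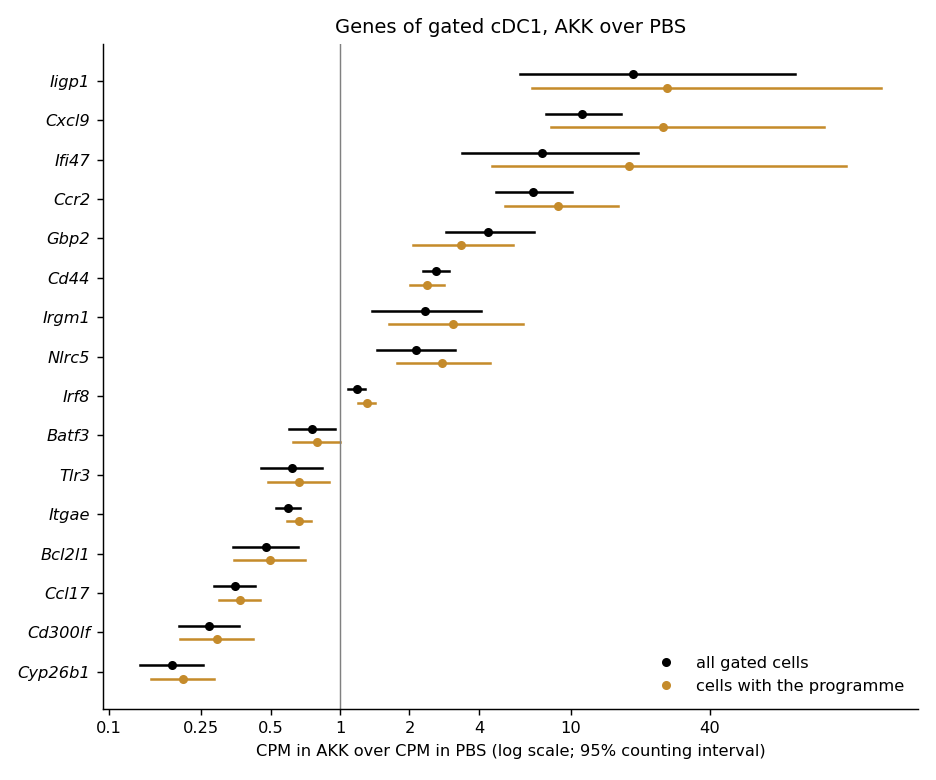
Ratios of AKK over PBS in summed UMIs, on a log axis, are drawn for 16 genes, over all gated cells and over programme cells, with bars for the exact 95% counting interval. Cxcl9 at 11.2 and Ccr2 at 6.82 stand to the right of 1, and Ccl17 at 0.350 and Cyp26b1 at 0.188 to the left, in both sets of cells.

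Receptors for entry into tissue included a difference spread over many cells. Ccr2 (chromosome 9, 124101950 to 124113557), the receptor for CCL2, was at 206 CPM in AKK and 30.2 CPM in PBS, a ratio of 6.82 (4.73 to 10.1). It was detected in 26 of 42 AKK cells and 9 of 39 PBS cells, and the top AKK cell held only 11.5% of the UMIs. After thinning, 19 of 38 AKK cells and 5 of 35 PBS cells (14.3%) held a Ccr2 UMI, a difference of 35.7 points (14.3 to 52.9). Programme cells gave 151 CPM in AKK and 17.2 CPM in PBS. The log2 ratio was 2.43 and lay between 2.18 and 3.60 under every alternative tried.

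Ccr2 also marks monocytes, so the other monocyte genes are set beside it. The 9 monocyte markers listed, Ccr2 and Lyz2 among them, summed to 1064 CPM in AKK and 389 CPM in PBS over the gated cells, and to 483 CPM in AKK and 317 CPM in PBS in programme cells. Ly6c2, which defines classical monocytes, was at 72.3 CPM in AKK and 22.2 CPM in PBS over the gated cells, and at 21.2 CPM in AKK and 16.1 CPM in PBS in programme cells. Vcan, a matrix protein gene of monocytes, had 2 UMIs in AKK, none of them in a programme cell, and 5 in PBS. F13a1 had 7 UMIs in each library. Chil3 was lower, with 23.8 CPM in AKK and 55.9 CPM in PBS. The part of monocyte RNA in the Ccr2 difference was not tested.

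The other migration genes divided. Of 13 measured, 7 had a ratio above 1, with Ccr2 and Cd44 at least 2-fold higher and Ccr9, a gut-homing receptor gene, at least 2-fold lower at 7.92 CPM in AKK and 31.1 CPM in PBS. Cd44, which binds hyaluronan, was at 787 CPM in AKK and 302 CPM in PBS (ratio 2.61, 2.29 to 2.97). It was detected in 95.2% of AKK and 87.2% of PBS cells. After thinning, Cd44 was found in 81.6% of AKK and 68.6% of PBS cells. These shares differed by less than their counting error (interval of the difference -6.76 to 31.9 points). Allowing 1 UMI of each of Cd3e, Cd79a and Siglech, the Cd44 log2 ratio was 0.29 rather than 1.35, so its 2-fold call depended on the gate. Under the alternatives tried it lay between 0.29 and 2.27. Ccr7 was at 115 CPM in AKK and 88.8 CPM in PBS (ratio 1.29, 0.982 to 1.71).

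**Figure D3:**
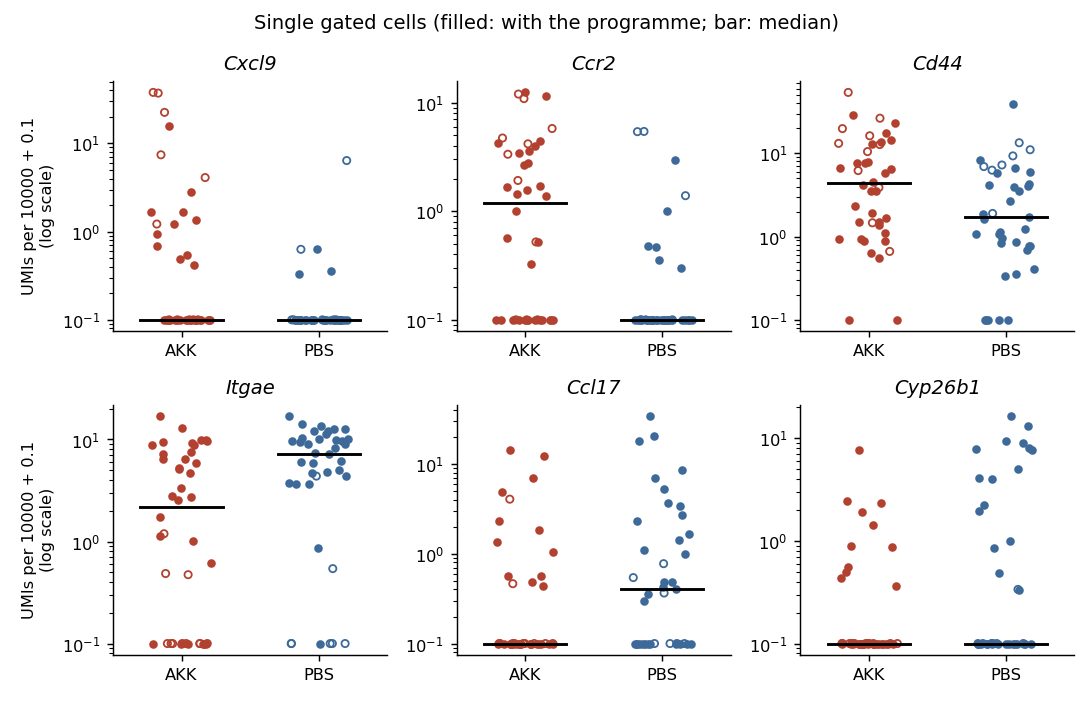
UMIs per 10000 plus 0.1, on log axes, are plotted for 6 genes in each gated cell, AKK left of PBS, with filled points for programme cells and a bar at the median. Ccr2 lies above the zero line in 26 AKK and 9 PBS cells, Cxcl9 in 17 AKK and 5 PBS cells, and Cyp26b1 in 11 AKK and 17 PBS cells.

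The gene for the integrin chain CD103, Itgae (chromosome 11, 73090583 to 73147446), was lower. It was at 419.8 CPM in AKK and 707 CPM in PBS, a ratio of 0.593 (0.526 to 0.668), and thinned cells with a UMI made up 57.9% in AKK and 80.0% in PBS (66.7% and 84.6% before thinning). Itgae pairs with integrin beta 7 to bind E-cadherin on epithelium. Programme cells, chosen in part by this gene, had 556 CPM in AKK and 834 CPM in PBS. Itgae did not stand apart among the identity genes: Rab7b lay farther from 1, with a ratio of 1.89, and Sept3 about as far, with 0.581. Of 24 in the list, all measured, 8 had a ratio above 1, none passed 2-fold, and the median log2 ratio was -0.11, or 0.00 in programme cells.

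Irf8 was at 1154 CPM in AKK and 976 CPM in PBS (ratio 1.18, 1.09 to 1.29), and Flt3 at 269 CPM in AKK and 204 CPM in PBS (ratio 1.32, 1.10 to 1.58). Batf3 was at 132 CPM in AKK and 174 CPM in PBS, and Tlr3, which senses double-stranded RNA taken up from dead cells, at 70.3 CPM in AKK and 114 CPM in PBS. Of the gate genes, which are description only, Clec9a was at 307 CPM in AKK and 330.2 CPM in PBS, and Xcr1 at 161 CPM in AKK and 186 CPM in PBS. Rab7b, an endosomal GTPase gene of the list, was at 233 CPM in AKK and 123 CPM in PBS (ratio 1.89, 1.52 to 2.34), and passed 2-fold in programme cells with a ratio of 2.08. The identity genes thus divided, with Rab7b, Irf8 and Flt3 above 1 and Itgae, Tlr3 and Batf3 below.

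MHC class I genes were higher by a small amount in most members. Of 17 measured, 16 had a ratio above 1, where 54.5% of all genes did, and the median log2 ratio was 0.24, or 0.23 in programme cells. H2-K1, a class I heavy chain gene, was at 1068 CPM in AKK and 852 CPM in PBS (ratio 1.25, 1.15 to 1.37). Tapbp, which loads peptide on class I, was at 314 CPM in AKK and 197 CPM in PBS (ratio 1.59, 1.34 to 1.90). H2-D1, whose sequence is close to that of H2-K1, was at 700.0 CPM in AKK and 695 CPM in PBS.

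MHC class II genes ran the other way. Of 13 measured, 10 had a ratio below 1, with a median log2 ratio of -0.17, or -0.24 in programme cells, and none passed 2-fold. H2-Ab1, a class II chain gene, was at 4574 CPM in AKK and 5656 CPM in PBS (ratio 0.809, 0.778 to 0.840). H2-Aa was at 4111 CPM in AKK and 4395 CPM in PBS. March1, which marks class II for degradation, was at 204 CPM in AKK and 339 CPM in PBS. Allowing 1 UMI of each excluded gene turned the list median to 0.16.

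Cross-presentation genes were mostly lower, with 12 of 16 below a ratio of 1 and a median log2 ratio of -0.17. Rab27a, a vesicle GTPase gene that limits acidification of phagosomes in mouse dendritic cells, was at least 2-fold higher, at 48.5 CPM in AKK and 16 CPM in PBS. Dnase1l3, which degrades DNA taken up by phagocytes, was at least 2-fold lower, at 95 CPM in AKK and 212 CPM in PBS, with a ratio of 0.779 in programme cells. Among costimulatory genes, 13 of 20 were measured and none passed 2-fold. Cd83, a maturation marker gene, was at 698 CPM in AKK and 533 CPM in PBS, and Cd86, a ligand of CD28, at 968 CPM in AKK and 908 CPM in PBS. Of 21 NF-kB genes, 1 was at least 2-fold higher, the inhibitor gene Tnip3, with 64.4 CPM in AKK and 20.4 CPM in PBS.

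Ligands that restrain T cells were measured for 12 of 13 genes, and 2 were at least 2-fold lower. Cd274, the gene for PD-L1, was at 641 CPM in AKK and 771 CPM in PBS (ratio 0.831, 0.749 to 0.921) over the gated cells, and at 749 CPM in AKK and 669 CPM in PBS in programme cells, so its direction depended on the cells counted. Arg1, which breaks down arginine and is known as a macrophage gene, was at 99 CPM in AKK and 251 CPM in PBS, with a programme-cell ratio of 0.825. Cd200r1, an inhibitory receptor gene, was at 22.8 CPM in AKK and 58.6 CPM in PBS. Tgfbr2, a receptor chain for TGF-beta in the growth receptor list, was at 47.5 CPM in AKK and 126 CPM in PBS. A single PBS cell with 338 C1q UMIs gave 40.1% of the PBS UMIs of Tgfbr2. Without the top cell of each library its log2 ratio was -0.83 rather than -1.24. The growth receptor list otherwise leaned upward, with 14 of 18 above a ratio of 1 and a median log2 ratio of 0.29.

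Dendritic cell transcription factors showed no common direction over all gated cells, with 8 of 16 on each side of 1 and none past 2-fold. Ikzf1, a factor needed for dendritic cell development, was at 456 CPM in AKK and 232 CPM in PBS, close to the 2-fold line. In programme cells Ikzf1 was past 2-fold, at 535 CPM in AKK and 236 CPM in PBS (ratio 2.27, 1.92 to 2.68). After thinning, it was found in 76.3% of AKK and 77.1% of PBS gated cells. Zeb2, a factor of pDC and cDC2 that restrains the cDC1 fate in mice, was at 761 CPM in AKK and 384 CPM in PBS over the gated cells. In programme cells Zeb2 was at 54.4 CPM in AKK and 47.2 CPM in PBS.

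Cell cycle genes had the highest median of the functional lists, markers of other cell types aside, and few cells carried it. All 13 measured members had a ratio above 1 and 7 were at least 2-fold higher, with a median log2 ratio of 1.12. Top2a, a topoisomerase of dividing cells, was at 149 CPM in AKK and 24 CPM in PBS, and Mki67, the gene of the Ki-67 antigen, at 146 CPM in AKK and 24.9 CPM in PBS. Cells with at least 3 UMIs of 7 mitosis genes numbered 12 of 42 in AKK and 10 of 39 in PBS, and 17 cells in each library had none. At least 10 UMIs were found in 5 AKK and 2 PBS cells, and at least 50 in 3 AKK cells and 0 PBS cells. Without the cycling cells the list median was 0.36 and Top2a had a log2 ratio of -0.32.

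Glycolysis and hypoxia genes were mostly lower, with 15 of 20 below a ratio of 1, none past 2-fold and a median log2 ratio of -0.29, or -0.51 in programme cells. Gapdh was at 737 CPM in AKK and 904 CPM in PBS, and Tpi1, another glycolytic enzyme gene, at 151 CPM in AKK and 227 CPM in PBS. Hif1a, the oxygen-regulated factor gene, ran against the list at 495 CPM in AKK and 298 CPM in PBS. Respiratory chain genes were above 1 for 18 of 23, with a median of 0.11. Allowing 1 UMI of each excluded gene turned the glycolysis median to 0.05.

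**Figure D4:**
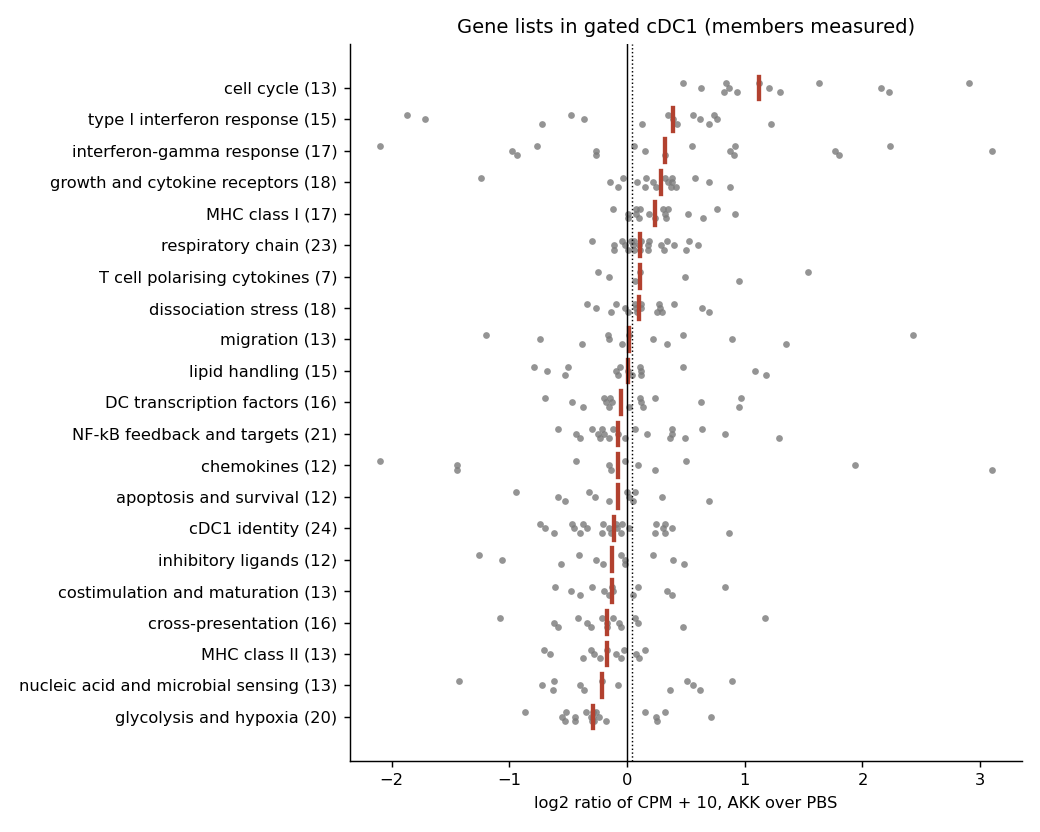
Log2 ratios of AKK over PBS are drawn as points for the measured members of each gene list (number in brackets), with a red bar at the list median and a dotted line at the median of all genes, 0.04. Cell cycle at 1.12 and type I interferon at 0.39 lie highest, and glycolysis and hypoxia at -0.29 lowest, over all gated cells.

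The remaining lists had medians from -0.21 to 0.10. Sensing genes were measured for 13 of 19, with 8 below 1 and a median of -0.21, and Mertk, a receptor for dead cells, was at least 2-fold lower at 34.7 CPM in AKK and 110.1 CPM in PBS, with 1 UMI in AKK and 2 UMIs in PBS in programme cells. Apoptosis and survival genes, with 12 of 15 measured, had a median of -0.08, and lipid handling genes, with 15 of 16 measured, one of 0.01. Npc2, which carries cholesterol out of lysosomes, and Pparg, a lipid-sensing nuclear receptor gene, were at least 2-fold higher, Npc2 at 519.8 CPM in AKK and 239.6 CPM in PBS. Bcl2l1, the survival gene for BCL-XL, was at 56.4 CPM in AKK and 118 CPM in PBS. Genes linked to tissue dissociation, 18 of 20 measured, had a median of 0.10.

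By a rule of size, breadth over cells and level above the free-RNA estimate, 12 genes were named in each direction from 1398 that met it. Higher in AKK were Ccr2, Ifi47 and Gbp2 again, the lysozyme gene Lyz2, Ifi27l2a, Cd180, S100a10, Emp3, Pid1, Rfx3 and the genes Diaph3 and Ncapg2, which act in cell division. Lyz2, abundant in monocytes and macrophages, was at 604 CPM in AKK and 142 CPM in PBS, with a ratio of 1.67 in programme cells. Cd180, a TLR-like receptor gene, was at 97.0 CPM in AKK and 29.3 CPM in PBS (ratio 3.31, 2.21 to 5.08).

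Lower in AKK, among others, were Cyp26b1, Enah, Bcl2l14, Shmt2, Adam23, Cdh17, Cd300lf, Ppp1r14a, Zfp362, Cyp4f16 and Adamts6. Cyp26b1, which breaks down retinoic acid, was at 48.5 CPM in AKK and 258 CPM in PBS, a ratio of 0.188 (0.136 to 0.255), in 11 AKK and 17 PBS cells. Thinned cells with a UMI made up 13.2% in AKK and 37.1% in PBS, and programme cells gave a ratio of 0.209. Cd300lf, an inhibitory receptor gene, was found after thinning in 31.6% of AKK and 65.7% of PBS cells (59.5% and 89.7% before it). Shmt2, a mitochondrial enzyme gene of folate metabolism, was at 9.90 CPM in AKK and 59.5 CPM in PBS.

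RNA of other cell types was present in the gated cells. Macrophage markers summed to 1845 CPM in AKK and 1915 CPM in PBS over the gated cells, and to 94.3 CPM in AKK and 192 CPM in PBS in programme cells. Neutrophil markers summed to 1693 CPM in AKK and 2341 CPM in PBS, of which S100a8, S100a9 and Retnlg gave 519 CPM and 866 CPM. Il1r2, another gene on the neutrophil list, was found in 78.9% of thinned AKK and 82.9% of thinned PBS gated cells. Whether cDC1 made it themselves was not tested. The cDC2 markers summed to 695 CPM in AKK and 843 CPM in PBS. Cd3e, Cd79a and Siglech were at 0 by the gate. Fscn1, a mature dendritic cell gene that the gate did not use, also had no UMI. T cell markers summed to 41.6 CPM in AKK and 18.6 CPM in PBS. B and plasma cell markers summed to 1444 CPM in AKK and 372 CPM in PBS. Igkc, the light chain gene of plasma cells, was at 1239 CPM in AKK and 330.2 CPM in PBS in the gated cells, and at 13906 CPM in AKK and 4238 CPM in PBS in all other barcodes. The part of this RNA in other differences was not tested.

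Across other antigen-presenting cells, the AKK over PBS ratio was set beside that of cDC2 (35 AKK and 11 PBS barcodes), pDC (98 and 42 barcodes) and macrophages (238 and 330 barcodes). Ccr2 was higher in AKK in all of them, with 543 CPM in AKK and 276 CPM in PBS in cDC2 and 216 CPM in AKK and 138 CPM in PBS in macrophages. Cxcl9 was at 286 CPM in AKK and 70.8 CPM in PBS in macrophages, and at 30.6 CPM in AKK in cDC2 with no UMI in PBS. Ccl17 was lower in AKK in cDC2 as well, with 193 CPM in AKK and 359 CPM in PBS, but higher in macrophages, with 92.9 CPM in AKK and 58.5 CPM in PBS. Whether any of these ratios differs between cell classes was not tested, since each class has 1 sample per group.

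**Figure D5:**
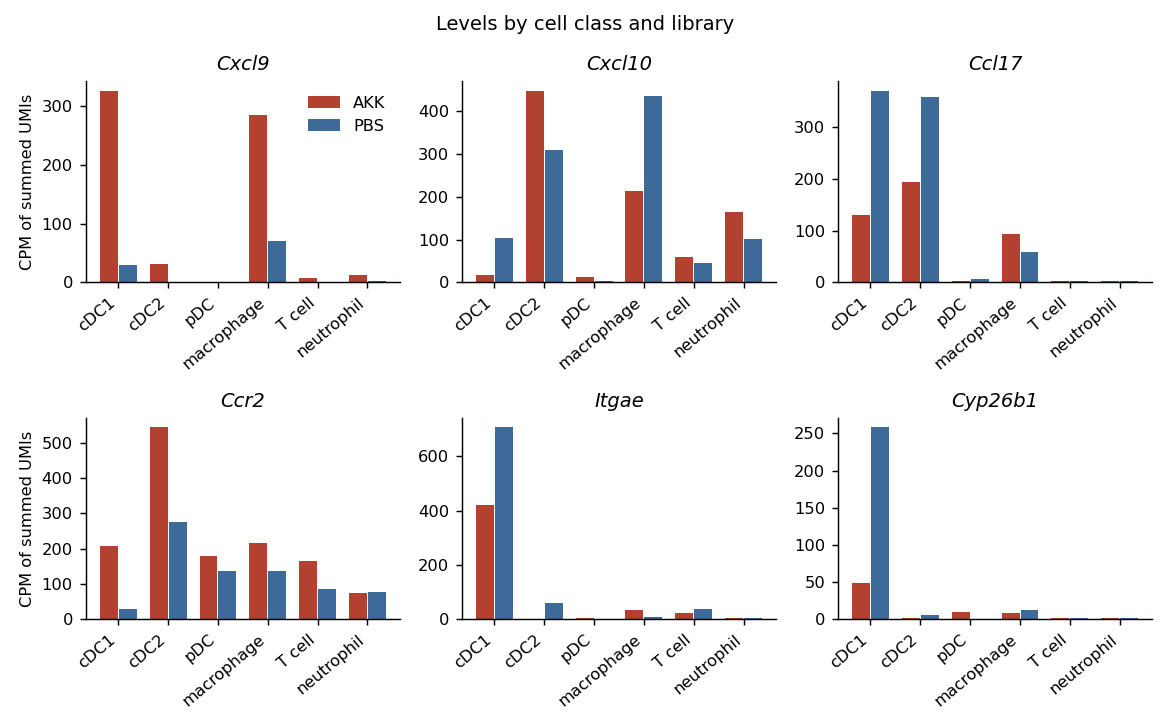
Bars give the CPM of summed UMIs of 6 genes in each cell class, AKK left of PBS, with 1 library per bar and so no error bar. Itgae and Cyp26b1 are highest in cDC1 in both libraries, and Ccl17 is lower in AKK in cDC1 and cDC2 but not in macrophages.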

How the data were processed

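Single-cell RNA was measured in 2 libraries, 1 per group, from live CD45+ singlets sorted out of liver tumours after Percoll separation and prepared with the 10x 3′ v3 kit, per the labels' protocols. The deposited values are raw UMI counts per gene and barcode, made by the authors with Cell Ranger (5.0.1 per the submitters' processing notes, 7.1.0 per the file headers) on mm10. The authors deposited 6610 AKK and 5088 PBS barcodes; the filter on genes and mitochondrial UMIs kept 6517 and 4833.

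Counts of the gated cells were summed per library and scaled to CPM, with exact conditional binomial 95% intervals for ratios, Clopper-Pearson intervals for shares and Newcombe intervals for differences, all for counting error only. Shares of cells with a UMI were computed after drawing 8993 UMIs per cell; 4 gated cells of each library were shallower and did not enter. Doublets were scored with Scrublet in scanpy 1.11.5 and none was removed. The automatic caller marked 2.04% of AKK and 0.0590% of PBS barcodes, and whether it worked in PBS was not tested. The barcodes of highest score (350 in AKK, 207 in PBS) included 2 gated cells in each library. Python 3.11.15, numpy 2.4.6, scipy 1.17.1 and edgeR 4.0.16 in R 4.3.3 (TMM scaling alone) were used, and the scripts were tested on simulated data. Promoter windows came from RefSeq tables on GRCm38.p6.

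Every member of the gene lists could be named. Beyond them, the 12 highest and 12 lowest log2 ratios were named among genes with a counting interval that left out 1, a UMI in at least 20% of gated cells of the higher library, no cell with over 25% of its UMIs there, the same direction with each cell weighted alike and a level at least 2 times the free-RNA estimate from neutrophil genes; all 24 also passed with the share found for Igkc in its place, a check added after seeing the data. Mitochondrial, ribosomal protein, immunoglobulin, Gm, Rik, Xist and Y-linked genes were left out of that rule. A few genes are not reported here. The members of the cDC1 gate and all gene lists were chosen with earlier results of these data known.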

Additional observations from a re-analysis of the deposited data

Results flagged for a closer look

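Among 13 genes set beside 3 other cell classes, 7 had an AKK over PBS ratio in cDC1 on the other side of 1 from that in another class, with neither counting interval reaching 1. The 13 genes were picked by hand and the same count over all genes was not made, so the 7 cannot be called many or few. In cDC1 alone the counting interval lay above 1 for 1028 and below 1 for 782 of 6330 genes. The difference between classes was not tested, since each class has 1 sample per group. Cxcl10 had a ratio of 0.161 in cDC1 and 1.45 (1.08 to 1.97) in cDC2, where it was at 448 CPM in AKK and 309 CPM in PBS. In cDC1, 41.5% of its PBS UMIs came from 1 cell without the programme. Ccl5 had a ratio of 4.24 in cDC1, against 0.132 (0.0909 to 0.188) in cDC2 and 0.264 (0.237 to 0.293) in macrophages; 60.4% of its AKK UMIs in cDC1 came from 1 cell. Ccl17 had a ratio of 0.350 in cDC1 and 1.59 (1.38 to 1.82) in macrophages. Il12b had a ratio of 3.46 in cDC1, most of it from 1 AKK cell, and 0.0404 (0.0109 to 0.105) in macrophages, where it was at 0.991 CPM in AKK and 24.5 CPM in PBS.

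Itgae had a ratio of 0.593 in cDC1 and 3.84 (2.87 to 5.17) in macrophages, which held it at 34.9 CPM in AKK and 9.10 CPM in PBS. H2-Ab1 had a ratio of 0.809 in cDC1 and 1.67 (1.63 to 1.71) in macrophages. Cd274 had a ratio of 0.831 in cDC1 and 1.49 (1.04 to 2.18) in pDC, and its ratio in cDC1 was 1.12 in the cells with the programme.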

How the results depend on the processing

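With 1 library per group, no result has a replicate check, and 42 AKK and 39 PBS cells limit every value. No paired analysis was possible because each group has 1 library. The AKK minus PBS difference in cDC1 share stayed within its counting interval under 10 alternatives, although the shares themselves ran from 0.246% to 1.33% in AKK and from 0.124% to 1.30% in PBS. The choice of cells moved more values than the scaling did: TMM moved the median log2 ratio of all genes by -0.05 and median-of-ratios size factors by -0.07 relative to CPM. The cause of each move below was not tested unless the alternative itself shows it. Alternatives that kept programme cells, left out C1q cells, allowed 1 UMI of the excluded genes or left out each gene's top cell were chosen after seeing the data.

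Genes at least 2-fold higher, 156, came to 78 with at least 100 UMIs, 244 with at least 1 UMI, 260 with a pseudocount of 1 CPM, 300 without cells holding over 1 UMI of other lineages' genes (16 AKK and 6 PBS cells left) and 95 when 1 UMI of each excluded gene was allowed. Genes at least 2-fold lower, 111, came to 55 with at least 100 UMIs, 203 with the smaller pseudocount and 169 with 1 UMI allowed. Without cells holding other lineages' genes, list medians moved to 0.49 (transcription factors), 0.068 (MHC class I), 0.70 (costimulation), 0.26 (inhibitory ligands), 0.44 (growth receptors), 1.34 (migration), 2.11 (interferon-gamma), 0.91 (NF-kB), 0.44 (cell cycle), -0.74 (glycolysis), 0.76 (lipid handling) and 0.32 (apoptosis). Without cycling cells they moved to 0.37 (MHC class I), 0.36 (cell cycle) and 0.12 (lipid handling). Requiring both Xcr1 and Clec9a gave 0.44 (growth receptors) and -0.73 (glycolysis), and at least 4 UMIs of the pair gave -0.50 (glycolysis). Programme cells gave 1.02 (interferon-gamma) and -0.51 (glycolysis), and leaving out C1q cells gave -0.45 (glycolysis). With 1 UMI allowed, medians moved to 0.16 (MHC class II), 0.49 (cell cycle), -0.20 (dissociation) and 0.048 (glycolysis, reversed).

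Among the genes recomputed, those at least 2-fold apart that turned direction were Cxcl10 (0.53), Ccl17 (0.64), Gbp2 (-0.17), Mki67 (-0.66) and Adam23 (1.07) without cells holding other lineages' genes, Ccl5 (-0.54) without mature cells, Top2a (-0.32) without cycling cells, and Il12b with at least 4 UMIs of Xcr1 and Clec9a (-0.65) or with 1 UMI allowed (-0.29). Genes with smaller differences turned as well, among them Bcl2l1 (0.66), Il18 (-0.67), Cd274 (0.70) and Gbp5 (0.94) without cells holding other lineages' genes. Cxcl9 stayed between 1.27 and 5.00, Ccr2 between 2.18 and 3.60 and Cyp26b1 between -3.65 and -1.86 on the log2 scale under every alternative tried.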
